A study of Mus musculus with 24 samples.

Results

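The comparison described here is between 2 batches of differentiated airway epithelial cells. It uses the 8 of 24 libraries in the series whose label names the differentiated subset, 5 of batch 1 (replicates 1 to 5) and 3 of batch 2 (replicates 6 to 8). Every library came from wild-type, female, naive C57BL/6 mice and from 1000 sorted tracheal cells; no treatment, transgene or deletion is labelled in either batch. The other 16 libraries (8 labelled BCAM high and 8 BCAM low, after the basal cell adhesion molecule) have the same split into 5 and 3 and serve as reference. The sources used here do not say what the batch number stands for. Age, pooling of animals and whether replicates were separate mice are also not stated, so p-values measure the spread between these samples only.

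The lining of the trachea holds basal progenitors and their differentiated offspring: secretory (club and goblet) cells, which release secretoglobins, BPI-fold proteins and mucins and carry enzymes that metabolise foreign compounds, and ciliated cells, whose motile cilia move the mucus. Rare ionocytes, tuft cells and neuroendocrine cells lie between them. The thyroid and parathyroid glands lie against the upper trachea; thyroid follicles are known for thyroglobulin and parathyroid cells for parathyroid hormone.

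The 8 libraries held 2249001 to 2575975 estimated counts each. Levels below are CPM, counts scaled to a common library total adjusted by TMM (a factor, 0.88 to 1.21 here, that aligns most genes between libraries). On the first principal component of log2 CPM, which held 45.4% of the variance, batch 1 lay between -46.6 and -24.6 and batch 2 between 29.5 and 78.3. Replicate 8 stood apart from the other batch 2 libraries on that axis, at 29.5 against 68.3 and 78.3. Scgb1a1 and Bpifa1, which mark differentiated secretory cells, were abundant in batch 1, as given below. The basal keratin Krt5 did not exceed 2.26 CPM in any of the 8 libraries (mean of 1500 CPM in BCAM high of batch 1), and the epithelial adhesion gene Epcam was 389 to 524 CPM. The thyroid gene Tg, which is no airway marker, was abundant in all 8, as given below. The Y-linked genes Ddx3y, Eif2s3y and Uty reached at most 3.55 CPM and Kdm5d 3.51 to 10.6 CPM, with no separation by batch beyond Ddx3y, which had 0 counts in batch 1 and 7 in batch 2.

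Of 11592 genes tested, 1963 (16.9%) differed between the batches, 1019 higher (8.79%) and 944 lower (8.14%) in batch 2 (edgeR quasi-likelihood test, Benjamini-Hochberg adjusted p under 0.05, the rule for every call below unless stated). Among them 725 of the higher and 563 of the lower genes differed by 1 or more on the log2 scale. Of the called genes, 51.9% were higher; with library totals in place of TMM this share was 75.9% of 1878, with the median of all genes moving from 0.008 to 0.231 on the log2 scale. With limma on log2(TPM + 0.1) it was 70.1% of 795 (median 0.334) and with TPM + 1 73.4% of 1011 (median 0.289). Changes are therefore relative to the TMM centre. Without replicate 6 the count was 987, without replicate 7 it was 1134, and without replicate 8 it was 2576. The values of the 3 batch 2 libraries overlapped with none of batch 1 for 1315 genes that were higher (11.3%) and 1417 that were lower (12.2%).

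Of 30 tested secretory genes 11 fell, among them 2 of the most abundant. Scgb1a1 (ENSMUSG00000024653, GRCm38 of GENCODE M21, not the submitters' GRCm39, chromosome 19, 9083636 to 9087958, minus strand), the club cell secretoglobin, was 61200, 97000, 77300, 55000 and 75100 CPM in batch 1 and 3640, 1400 and 7770 CPM in batch 2. The batches did not overlap, and the log2 change was -4.10 (SE 0.54, edgeR adjusted p = 5.43e-04). Bpifa1 (ENSMUSG00000027483, chromosome 2, 154142880 to 154149219, plus strand), which encodes the secreted airway protein SPLUNC1, was 134000 to 185000 CPM in batch 1 and 5450, 5720 and 33700 CPM in batch 2. Again no batch 2 library reached batch 1, and replicate 8 was the nearest; the log2 change was -3.38 (SE 0.64, edgeR adjusted p = 0.00399). Chad, which encodes the matrix protein chondroadherin, went from 433 to 608 CPM to 18.3, 23.2 and 91.9 CPM (log2 change -3.44). Selenbp1 (-3.21), Hp (haptoglobin, -3.20), Cyp2f2 (a club cell cytochrome P450, -2.97), Lypd2 (-2.82), Scgb3a2 (-2.71), Gabrp (-2.62), Aldh1a1 (-2.57) and Cbr2 (-2.47) also fell on the log2 scale.

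In all, 11 of the 30 fell, 2 rose and 17 were not called, with a median log2 change of -0.99 against 0.008 over all genes tested. The summed level of the list was 304000 to 425000 CPM in batch 1 and 34700, 19700 and 146000 CPM in replicates 6, 7 and 8. The 2 that rose were the goblet mucin Muc5ac, from 16.7 to 28.0 CPM to 45.8 to 73.0 CPM (log2 change 1.35, SE 0.22, edgeR adjusted p = 0.00168), and the sodium channel subunit Scnn1b (0.80). Abundant secretory genes that were not called included Ltf, lactoferrin, at 28500 to 42000 CPM in batch 1 and 7110, 4000 and 35300 CPM in batch 2 (-1.22, edgeR adjusted p = 0.229). The secretoglobin gene Scgb3a1 was 7680 to 13500 CPM against 2950, 1440 and 13600 CPM (-0.74, edgeR adjusted p = 0.514), and Bpifb1, another BPI-fold gene, 2900 to 6310 CPM against 696, 232 and 2990 CPM (-1.62, edgeR adjusted p = 0.238). Replicate 8 lay within or above the batch 1 range in all 3. Muc5b, the main airway mucin, was 2250 to 3150 CPM in batch 1 and 790, 500 and 4280 CPM in batch 2, and Reg3g, an antimicrobial lectin, was 5170 to 6900 CPM against 4290, 1970 and 14600 CPM. In Muc5b and Reg3g replicate 8 was the highest of all 8 libraries, the batches overlapped and no call was made (edgeR adjusted p = 0.627 and 0.86). Other uncalled genes had positive changes, such as Dmbt1, 74.9 to 1080 CPM against 1970, 443 and 4690 CPM (2.00, edgeR adjusted p = 0.219). Gp2 changed by 2.49 (edgeR adjusted p = 0.275), and the highest log2 change of the list, 4.16, was not called either. Without replicate 8 the list had 19 lower and 2 higher with a median of -2.36, and without replicate 6 it had 9 lower and 2 higher with a median of -0.64.

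**Figure D1:**
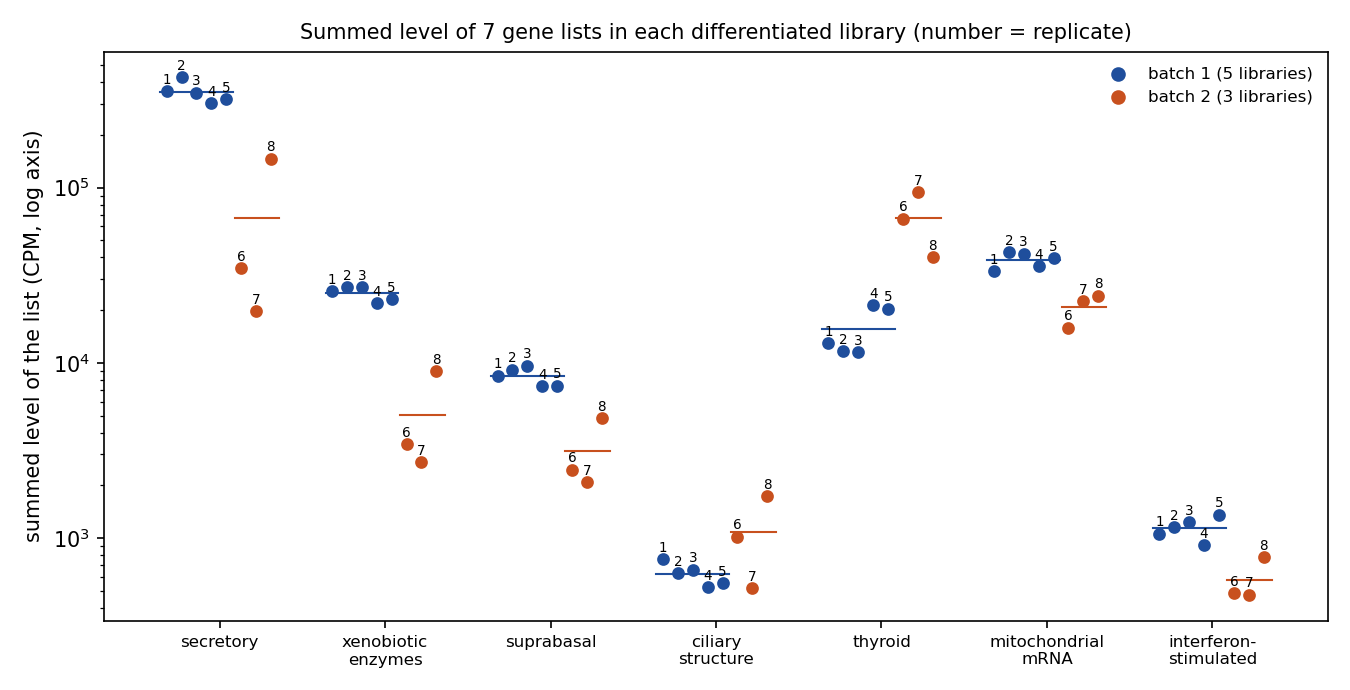
Summed CPM of the members of 7 gene lists (log axis) in each of the 8 differentiated libraries; points are libraries, numbers are replicates, blue is batch 1, orange is batch 2 and lines are batch means. The secretory sum lies between 304000 and 425000 CPM in batch 1 and at or below 146000 CPM in batch 2. The thyroid sum, nearly all of it Tg, lies between 39900 and 94500 CPM in batch 2, above every batch 1 library.

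Enzymes of xenobiotic metabolism fell with them. Of 23 tested, 19 fell and 0 rose, with a median log2 change of -2.24; the summed level was 21900 to 27100 CPM in batch 1 and 3440, 2710 and 8980 CPM in batch 2. The carboxylesterase Ces1f was 253 to 494 CPM in batch 1 and 10.7, 11.9 and 40.9 CPM in batch 2 (log2 change -4.22, SE 0.55, edgeR adjusted p = 0.00302). In this gene, as in the sum, the batches were apart and replicate 8 was the least reduced. Aldh3a1, an aldehyde dehydrogenase, changed by -3.47 (SE 0.51), and Gsto1, a glutathione transferase of 5080 to 6580 CPM in batch 1, was at 840, 592 and 2710 CPM in batch 2 (-2.07, SE 0.47). Of the 4 tested members that were not called, Gstt1 had a log2 change of 0.71, Cyp2s1 of 0.97, Aldh1a7 of -0.95 and Nqo1 of -1.28. Without replicate 6 the list had 13 lower, and the call of Gsto1 was lost; without replicate 8 it had 20 lower and 1 higher.

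Suprabasal and simple keratins and their neighbours, which mark luminal and hillock cells, were lower too: 10 of 15 tested fell and 0 rose, with a median of -1.43. Krt4 was 437 to 593 CPM in batch 1 and 53.9, 44.3 and 180 CPM in batch 2 (log2 change -2.46, SE 0.49, edgeR adjusted p = 0.0156). Krt8, the simple epithelial keratin, was 709 to 1070 CPM and then 314, 326 and 560 CPM (-1.15, SE 0.22, edgeR adjusted p = 0.00335). Krt13 changed by -3.47 with overlapping batches and Ecm1 by -2.33, and each of these calls was lost without any 1 of 6 libraries (replicates 2 to 7 for Krt13, 1 to 6 for Ecm1). Anxa1, with 1840 to 2450 CPM in batch 1, had 550, 345 and 1440 CPM in batch 2 and lay at the threshold (edgeR adjusted p = 0.05).

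Ciliary genes moved the other way, in smaller numbers of counts. Of 29 tested genes for the structure of motile cilia, 14 rose and 0 fell, with a median log2 change of 1.34. Dnah12, an axonemal dynein heavy chain, was 11.3 to 16.4 CPM in batch 1 and 68.1, 34.1 and 68.7 CPM in batch 2, without overlap (2.02, SE 0.26, edgeR adjusted p = 4.06e-04). Dnah9 (2.04) and Hydin (1.93), a central pair protein, rose as well. Tppp3, a tubulin-binding protein, was 245 to 351 CPM against 148, 81.1 and 361 CPM and was not called (-0.53, SE 0.44, edgeR adjusted p = 0.474). The sum of the list did not separate the batches: it was 527 to 758 CPM in batch 1 and 1020, 521 and 1730 CPM in batch 2, highest in replicate 8. The regulator Foxj1 was 10.7 to 23.1 CPM in batch 1 and 41.9, 17.4 and 76.9 CPM in batch 2 (1.41, SE 0.40, edgeR adjusted p = 0.0345). That was the 1 call among 9 tested ciliary regulators; its batches overlapped and it was lost without any 1 of replicates 1, 3, 4, 5, 6 or 8. Ulk4, another member of that list, had a log2 change of 0.20 (SE 0.43, edgeR adjusted p = 0.799). Without replicate 8 the structure list had 7 higher and 1 lower; without replicate 7 it had 20 higher.

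**Figure D2:**
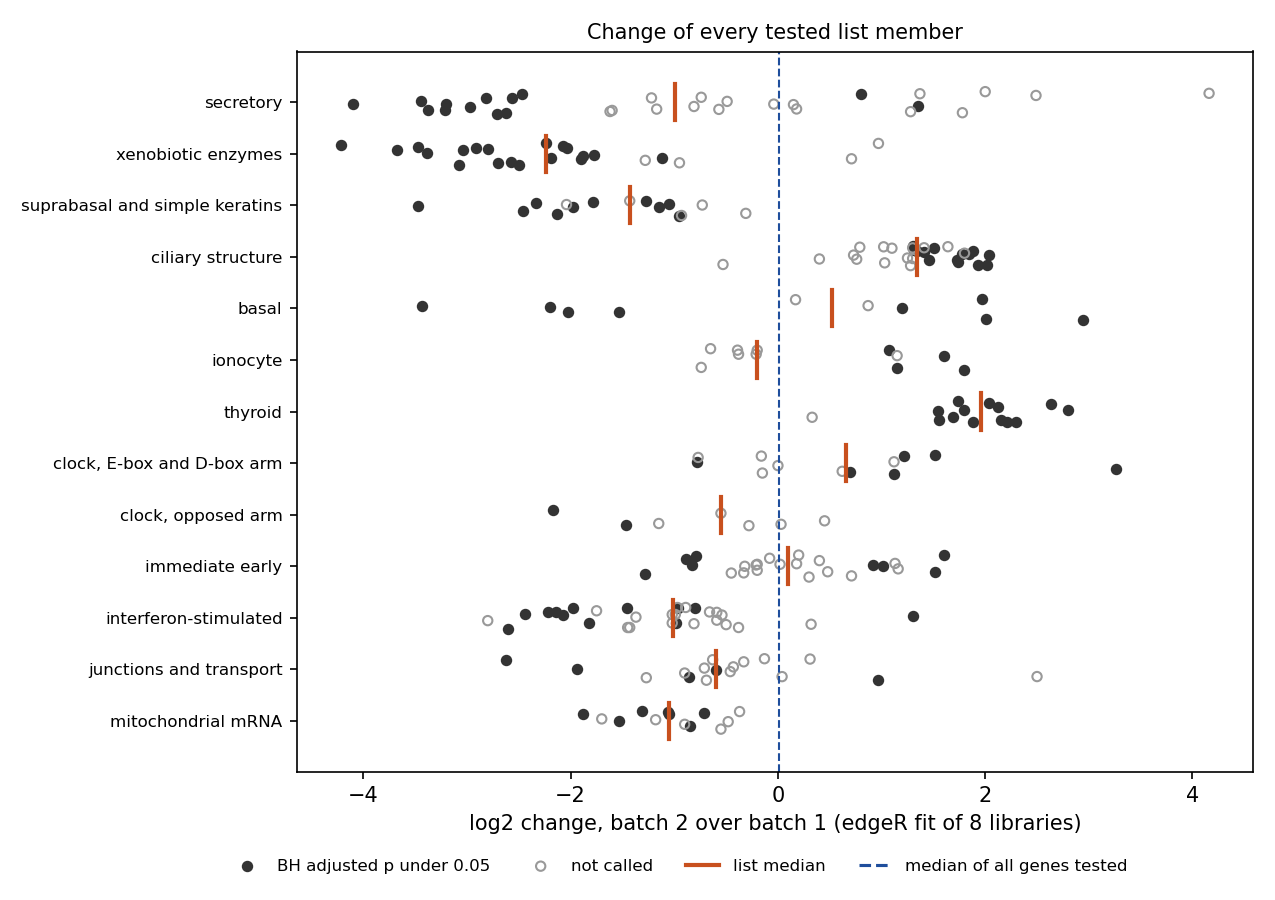
Fitted log2 change, batch 2 over batch 1, of every tested member of 13 lists; filled points passed the adjusted p threshold, open points did not, orange bars are list medians and the dashed line is the median of all 11592 genes (0.008). Xenobiotic enzymes have a median of -2.24, ciliary structure genes of 1.34 and thyroid genes of 1.96.

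Thyroid genes rose as a block. Tg (ENSMUSG00000053469, chromosome 15, 66670753 to 66850721, plus strand), which encodes thyroglobulin, was 12000, 10800, 10600, 19900 and 19300 CPM in batch 1 and 62500, 89800 and 37200 CPM in batch 2. All 3 batch 2 libraries lay above all 5 of batch 1, with replicate 8 the lowest of the 3 (log2 change 2.12, SE 0.34, edgeR adjusted p = 0.00139). Slc26a7, an anion transporter of follicle cells, was 28.0 to 62.1 CPM and then 301, 439 and 138 CPM (2.80, SE 0.38, edgeR adjusted p = 0.00282). The transcription factor Hhex rose by 2.63 and the iodide transporter Slc5a5 by 2.30 on the log2 scale; the latter call was lost without any 1 of replicates 1, 2, 3, 5, 6 or 7. The deiodinating enzyme Iyd (1.88), the thyrotropin receptor Tshr (2.21) and the transcription factors Pax8 (2.04), Foxe1 (1.80) and Nkx2-1 (1.54) also rose.

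Of 14 thyroid genes tested, 13 rose and 0 fell; the exception was Slc5a8 (0.33). The Tg call was lost in a fit of all 24 libraries (edgeR adjusted p = 0.099), where the list had 13 higher of 15. The summed level, nearly all of it Tg, was 11500 to 21400 CPM in batch 1 and 66500, 94500 and 39900 CPM in batch 2. Slc26a4, pendrin, was not tested: it had 3 counts in all of batch 1 and 208 in batch 2, a ratio of 92.0 (exact 95% interval 31.0 to 450), and its level was 82.4 CPM in replicate 6 and at most 4.43 CPM in the other libraries. Across the 3 batch 2 libraries the thyroid sum was lowest where the secretory sum was highest. The part of these thyroid transcripts in the lower secretory levels was not tested, and in bulk samples fewer cells of a type and less RNA per cell cannot be told apart. In the BCAM libraries Tg was far lower, at 12.5 CPM (high) and 2.79 CPM (low) in batch 1 and 577 and 132 CPM in batch 2.

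Bcam itself (ENSMUSG00000002980, chromosome 7, 19756131 to 19771016, minus strand), the laminin receptor that names the other subsets, was 88.2, 109, 133, 205 and 205 CPM in batch 1 and 699, 725 and 364 CPM in batch 2. The batches did not overlap (log2 change 2.01, SE 0.33, edgeR adjusted p = 0.00538). For batch 1 the differentiated mean of 148 CPM lay below those of BCAM high (437 CPM) and BCAM low (351 CPM). For batch 2 the differentiated mean, 596 CPM, exceeded that of BCAM low (415 CPM) and stayed below that of BCAM high (632 CPM). Replicate 8 alone, at 364 CPM, lay below both means. Levels were not tested between subsets. The order of Bcam across the differentiated batch 2 libraries, with replicate 8 lowest, was that of the thyroid sum. Whether the 2 are linked was not tested. Of 10 tested basal genes 4 rose and 4 fell (median 0.52). Trp63, the basal transcription factor, was 0.501 to 2.80 CPM and then 15.1, 21.8 and 6.21 CPM (2.94, SE 0.55, edgeR adjusted p = 0.00316), and the laminin chain Lamb3 (1.97) and the integrin Itga6 (1.20) rose. Krt15 fell, from 1550 to 1970 CPM to 210, 168 and 727 CPM (-2.20, SE 0.50, edgeR adjusted p = 0.0214), as did Pdpn (-2.03), Aqp3 (-1.53) and the low-level nerve growth factor receptor gene Ngfr (-3.43). Without replicate 6 the list had 4 higher and 0 lower calls; without replicate 7 it had 3 and 2, the call of Ngfr being lost there too.

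Among rare cell types, 4 of 11 ionocyte list genes rose and 0 fell, but not the defining ones. The list had 2 higher without any 1 of replicates 2, 4, 5 or 7, and 3 higher and 2 lower without replicate 8. The transcription factor gene Tfcp2l1 was 60.3 to 129 CPM in batch 1 and 253, 411 and 276 CPM in batch 2 (1.80, SE 0.23, edgeR adjusted p = 5.91e-04); Moxd1 (1.60), Atp6v0d2 (1.15) and Asgr1 (1.07) were the others. Foxi1 and Ascl3, which define ionocytes, stayed at or below 10.5 CPM in every library, were at 0 in replicate 6 and were not called, and the list's median was -0.20 (0.11 with library totals, and -0.52 to 0.37 with 1 library left out). The call of Moxd1 was lost without any 1 of replicates 2, 4, 5, 7 or 8, and that of Atp6v0d2 without any 1 of replicates 2, 4, 5, 6 or 7. Of 11 neuroendocrine list genes 4 rose: Cplx2, a complexin of secretory vesicles, from 10 to 24.9 CPM to 111, 117 and 58.5 CPM (2.65, SE 0.29, edgeR adjusted p = 2.34e-04), the granule chaperone gene Scg5 (1.69), the receptor tyrosine kinase gene Ret (1.85) and the peptide gene Grp (1.68). The Ret call was lost without any 1 of replicates 1, 2, 3, 6 or 7. Across the batch 2 libraries Cplx2, Scg5 and Ret were highest in replicate 7 and lowest in replicate 8, as was the thyroid sum. Whether they are linked, and which cells these transcripts came from, was not tested. Chga, chromogranin A, ranged from 117 to 9260 CPM within batch 1 and from 12.1 to 140 CPM in batch 2 and was not called (edgeR adjusted p = 0.106).

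Pth, parathyroid hormone, was 2290, 14300, 1310, 2660 and 151 CPM in batch 1 and 185, 0 and 0 CPM in batch 2. Replicate 6 lay above the lowest batch 1 library and the gene was not called (-6.08, SE 2.77, edgeR adjusted p = 0.202). Replicate 2 was the highest library for both Pth and Chga. Of 5 parathyroid genes 1, Tbx1, fell (-3.32), a call lost without replicate 7. All 5 had log2 changes between -6.08 and -1.62 (median -3.39). The list sum was 158 to 14400 CPM in batch 1 and 193, 8.86 and 3.6 CPM in batch 2. In the fit of all 24 libraries and by the DESeq2 Wald test 4 were lower, and with transcript length offsets or without replicate 7 there were 0. Tuft cell genes were scarce, with a list sum of 28.4 to 133 CPM in batch 1 and 13.4 to 37.5 CPM in batch 2; Gnb3 had 105 counts in batch 1 and 0 in batch 2, at least 26.4-fold lower against a floor of 3 counts over the batch. That call was lost without any 1 of 7 libraries, all but replicate 5.

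Markers of cells outside the epithelium were low. The leukocyte gene Ptprc did not exceed 2.58 CPM, and the immune list's sum (15300 to 20400 CPM in batch 1, 3900, 1000 and 11500 CPM in batch 2) was nearly all Lyz2, lysozyme, which airway epithelium also makes. Lyz2 was not called (-1.75, SE 0.66, edgeR adjusted p = 0.111). Of the 3 tested immune genes 1 fell, Csf1r (-1.98), a call lost without any 1 of replicates 1, 2, 3, 6 or 7. The fibroblast sum was 6.02 to 310 CPM in batch 1 and 298, 9.55 and 2.62 CPM in batch 2, and the batches overlapped. Col3a1 among them was not called (0.80, SE 1.81, edgeR adjusted p = 0.812). Endothelial genes summed to 11.7 to 30.6 CPM and then 32.1 to 41.6 CPM, of which Ramp2 fell, with 45 counts against 1 (ratio 33.9, exact 95% interval 5.79 to 1370; lost without replicate 6 or 7), and Pecam1 was not called (1.37, SE 0.45, edgeR adjusted p = 0.0536). In the smooth muscle list Myh11, a myosin heavy chain, rose at a low level, from 0.934 to 2.22 CPM to 12.0, 7.50 and 7.85 CPM, a call lost without replicate 6, while Tagln had 26 counts in batch 1 and 0 in batch 2. The summed levels of skeletal muscle, chondrocyte and erythrocyte genes were at most 7.5, 13.3 and 2.51 CPM in any library.

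Circadian clock genes shifted in both arms of the loop. In the clock, CLOCK and BMAL1 (gene Arntl) act through E-boxes on the Per, Cry, Dbp and Nr1d genes; DBP and its relatives act through D-boxes, opposed by NFIL3, and the ROR and REV-ERB receptors act on Arntl and Nfil3 through ROR elements. Of 22 listed clock genes, 18 had an entry in the RefSeq promoter table (GRCm38.p6). The 250 bases before the start were searched on both strands for the E-box CACGTG, the D-box TTATGTAA and the ROR element core TAGGTCA; each window shown holds 1 kind of motif. Of 32851 windows in the table, 6.02% held the first, 0.819% the second and 2.23% the third; of the clock genes, 5, 1 and 1 held them. The windows below are those of 3 members whose levels differed between the batches, 1 for each motif, which is in capitals.
Per3 (chr4:151044666-151044915, minus strand, D-box): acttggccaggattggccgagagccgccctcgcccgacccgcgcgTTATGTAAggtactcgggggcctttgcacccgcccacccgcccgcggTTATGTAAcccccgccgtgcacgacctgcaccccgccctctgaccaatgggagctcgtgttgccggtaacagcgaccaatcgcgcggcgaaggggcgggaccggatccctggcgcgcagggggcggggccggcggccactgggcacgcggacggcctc
Per1 (chr11:69098699-69098948, plus strand, E-box): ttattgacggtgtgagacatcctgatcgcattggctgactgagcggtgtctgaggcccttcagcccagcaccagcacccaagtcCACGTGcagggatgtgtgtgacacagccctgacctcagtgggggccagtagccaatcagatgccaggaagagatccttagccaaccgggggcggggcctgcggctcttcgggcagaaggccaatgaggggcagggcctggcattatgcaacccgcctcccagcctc
Nfil3 (chr13:52981040-52981289, minus strand, ROR element core on the opposite strand): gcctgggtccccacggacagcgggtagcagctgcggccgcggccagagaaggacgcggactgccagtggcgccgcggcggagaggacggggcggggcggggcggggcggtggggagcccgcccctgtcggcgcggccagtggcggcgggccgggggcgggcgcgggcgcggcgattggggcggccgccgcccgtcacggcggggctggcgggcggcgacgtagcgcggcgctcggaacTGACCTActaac
A match describes these letters only.

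Of 12 tested genes of the E-box and D-box arm, 5 rose and 1 fell (median 0.66), and of 7 tested genes of the opposed arm 2 fell and 0 rose (median -0.55, but 0.15 with limma on log2(TPM + 0.1) and 0.13 with TPM + 1). Dbp, an output transcription factor, was 0, 2.51, 0.431, 0.904 and 0 CPM in batch 1 and 7.13, 6.14 and 9.48 CPM in batch 2 (log2 change 3.26, SE 0.81, edgeR adjusted p = 0.0147). Nr1d2, a REV-ERB receptor, was 9.53 to 28.0 CPM and then 54.3, 42.3 and 39.6 CPM (1.52, SE 0.30, edgeR adjusted p = 0.0045). Per3, the period gene whose window above holds 2 D-boxes, was 12.6 to 24.1 CPM and then 57.4, 30.3 and 55.9 CPM (1.22, SE 0.26, edgeR adjusted p = 0.00699). None of these 3 overlapped between the batches, and Per2 (1.12) and the repressor Cry2 (0.70) rose with them.

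Arntl fell, from 27.5 to 47.6 CPM to 11.1, 16.0 and 15.7 CPM (-1.47, SE 0.25, edgeR adjusted p = 0.00192), and Nfil3 from 8.59 to 26.3 CPM to 1.78, 1.36 and 7.52 CPM (-2.17, SE 0.55, edgeR adjusted p = 0.0172). The 2 arms were not uniform. Per1, whose window holds an E-box, fell from 80.7 to 120 CPM to 44.1, 48.4 and 78.2 CPM (-0.78, edgeR adjusted p = 0.02), Nr1d1 was 83.5 to 149 CPM against 99.8, 129 and 112 CPM (0.00, SE 0.20, edgeR adjusted p = 0.991), and Clock had a log2 change of 0.45 (SE 0.32, edgeR adjusted p = 0.382). Without replicate 6 the first arm had 1 higher call and the second 1 lower call, and the calls of Dbp, Per3 and Nfil3 were lost; that of Nfil3 was also lost without replicate 7. With limma on log2 TPM, Arntl and Nfil3 were not called. In the BCAM libraries the fitted change of Arntl was -1.41 (high) and -1.35 (low) and that of Nr1d2 2.44 and 2.12. For neither gene was the difference from the differentiated cells called (Arntl, edgeR interaction adjusted p = 0.98 and 0.904; Nr1d2, 0.186 and 0.422). Of 14 genes of the E-box and D-box arm, 1 had a higher and 2 a lower change than in BCAM high. Against BCAM low 3 were lower, among them Per3 (-1.08, edgeR interaction adjusted p = 0.028). Of 8 in the opposed arm, Nfil3 alone differed from BCAM high (-1.64, edgeR interaction adjusted p = 0.0476) and 0 from BCAM low. Nr1d1 rose by 1.53 in BCAM high and 1.23 in BCAM low, but its difference was not called. The labels used here give no hour of collection.

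**Figure D3:**
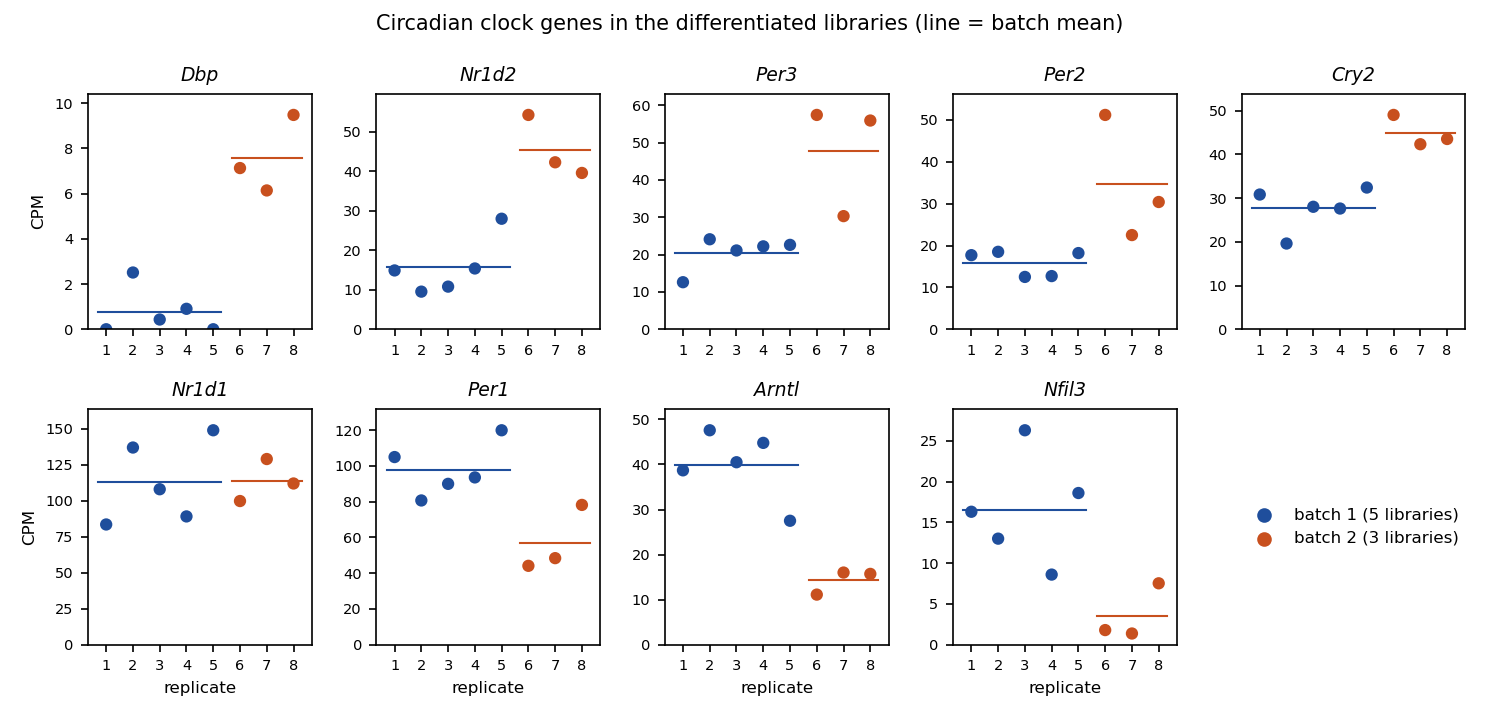
CPM of 9 clock genes in each differentiated library, by replicate number; blue is batch 1, orange is batch 2, lines are batch means and every axis starts at 0. Dbp, Nr1d2, Per3, Per2 and Cry2 lie higher and Per1, Arntl and Nfil3 lower in all 3 batch 2 libraries, while Nr1d1 overlaps.

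Of 30 tested interferon-stimulated genes, 11 fell and 1 rose (median -1.01). Ifit1 was 46.1 to 77.2 CPM in batch 1 and 3.56, 6.82 and 23.9 CPM in batch 2 (-2.44, SE 0.52, edgeR adjusted p = 0.0147), Ifi44 changed by -2.22 and Zbp1, a nucleic acid sensor, by -2.60. Ifi27, the tested member with the highest mean level, went from 174 to 244 CPM to 104, 96.8 and 126 CPM (-0.98, SE 0.16, edgeR adjusted p = 0.00174). The gene that rose was Iigp1 (1.30). Without replicate 6 there were 4 lower calls and without replicate 8 there were 16; the call of Ifit1 was lost without replicate 7 and that of Zbp1 without 6 or 7. Of 9 tested MHC genes 3 fell, 1 rose and 5 were not called (median -0.30): the class I genes B2m (-0.87), H2-D1 (-0.79) and H2-K1 (-0.74) fell and the class II chain Cd74 rose (1.90). The Cd74 call was lost without replicate 7, those of H2-D1 and H2-K1 with library totals in place of TMM, and those of B2m, H2-D1 and H2-K1 with limma on TPM. In BCAM high and BCAM low the interferon list had medians of -0.58 and -0.72 and the MHC list of -0.65 and -1.09. Of 31 interferon-stimulated genes, 2 had a lower and 1 a higher change than in BCAM high. Against BCAM low 1 was lower and 1 higher.

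Of 11 tested cytokine genes 3 fell: the neutrophil chemokine Cxcl5, from 12.4 to 104 CPM to 0.891, 0.341 and 4.58 CPM (-5.03, SE 0.97, edgeR adjusted p = 0.0145), Cxcl16 (-1.14) and Cx3cl1 (-1.10). Cxcl17 was not called (-1.08, SE 0.59, edgeR adjusted p = 0.272). The Cxcl5 call was lost without replicate 6 or 7. Of 24 tested immediate early genes 4 rose and 4 fell, a balance that moved with the settings: 7 and 2 with library totals, 4 and 0 or 5 and 0 with limma on TPM, 1 and 2 without replicate 6, 1 and 4 without replicate 7, 2 and 4 without replicate 2 and 7 and 5 without replicate 8. Egr2 (1.60) and Ier2 (1.52) rose, while Nr4a1 (-1.28) and Fos (-0.79), which was 2910 to 3670 CPM in batch 1 and 1690, 1750 and 2140 CPM in batch 2, fell. The stress genes Ddit3 (1.22) and Hspa5 (0.83), a chaperone of the endoplasmic reticulum, rose and the small heat shock gene Hspb1 (-1.26) fell, among 3 higher and 1 lower of 16; Hspa8 had a change of -0.07 (SE 0.16, edgeR adjusted p = 0.811). The Ier2 call was lost without any 1 of replicates 2, 5, 6 or 7, that of Fos without 6 or with library totals, and that of Ddit3 without 6 or 7; Nr4a1, Fos and Egr2 were not called with limma on TPM. The stress list had 1 higher without replicate 6 or 7. Of 7 tested cell cycle genes 1 rose, Mcm2 (0.95), a call lost without any 1 of replicates 1, 2, 3, 4, 6 or 7; Pcna had -0.52 (edgeR adjusted p = 0.151).

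The Notch receptor gene Notch2 (-0.95) and the target Hey1 (-1.57) fell, and Notch1 (0.72) and Hes6 (0.85) rose, of 10 tested. The Hey1 call was lost without any 1 of replicates 1, 6 or 7 and that of Hes6 without any 1 of 3, 4, 5, 6 or 8; with library totals the list had 3 higher and 0 lower, and without any 1 of replicates 3 to 6 it had 0 higher. Of 17 genes for junctions and ion transport 4 fell and 1 rose: Cldn23, a claudin, from 72.3 to 114 CPM to 12.5, 4.43 and 27.5 CPM (-2.62, SE 0.48, edgeR adjusted p = 0.00802), and the sodium channel subunit Scnn1g, from 30.1 to 56.9 CPM to 8.46, 16.0 and 6.87 CPM (-1.94, SE 0.32, edgeR adjusted p = 0.00179), had the largest falls. The list had 2 lower without replicate 6 or 7, or with library totals, and 9 lower without replicate 8. The sodium pump subunit Atp1b1 was not called (0.31, SE 0.20, edgeR adjusted p = 0.335). Transcripts of the mitochondrial genome were lower: 7 of 13 fell and 0 rose (median -1.05), led by mt-Nd2, from 906 to 1290 CPM to 275, 327 and 317 CPM (-1.88, SE 0.17, edgeR adjusted p = 5.52e-05), mt-Cytb (-1.53) and mt-Nd4 (-1.31). With library totals 3 of the 13 were called, and with limma on TPM 1 was. The one with the highest mean level, mt-Co1, was not called (-0.37, SE 0.19, edgeR adjusted p = 0.199). Their share of all counts was 3.201% to 3.978% in batch 1 and 1.451%, 2.637% and 2.889% in batch 2, and the medians in BCAM high (-0.75) and BCAM low (-0.96) had the same sign.

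The 8 genes with the largest rise, by the rule for named genes, were Sftpc, Chil4, Sprr2a2, Scd1, Clca1, Cd177, Dusp2 and Trim36. Sftpc, surfactant protein C of alveolar type 2 cells, was at most 5.77 CPM in batch 1 and 3260, 81.5 and 7.20 CPM in batch 2, highest in replicate 6 (log2 change 9.14, SE 2.16, edgeR adjusted p = 0.0349). Its call was lost without any 1 of replicates 1, 2, 3, 4, 5 or 7. Without replicate 6 the change was 4.49 and still called (edgeR adjusted p = 0.0427). Mean Sftpc went from 0.107 to 148 CPM in BCAM high and from 0.177 to 2.86 CPM in BCAM low. Of other alveolar genes, listed after values had been seen, Sftpb was 226 CPM in replicate 6 and at most 20.1 CPM elsewhere (not called, edgeR adjusted p = 0.271), and Lamp3 had 0 counts in batch 1 and 46 in batch 2, at least 20.3-fold higher against 3 counts over the batch. Napsa, which encodes an aspartic protease, differed in all 3 libraries, from 52.5 to 103 CPM to 400, 386 and 215 CPM (2.13, edgeR adjusted p = 3.46e-04).

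Chil4, a chitinase-like protein known from type 2 airway responses, was 5.60, 0, 6.89, 0 and 89.2 CPM in batch 1 and 2200, 2630 and 9520 CPM in batch 2 (7.87, SE 1.87, edgeR adjusted p = 0.0354). Clca1, a goblet cell gene known from the same response, was 49.7 to 197 CPM and then 827, 475 and 2490 CPM (3.49, SE 0.65, edgeR adjusted p = 0.0147). The batches were apart in both genes and replicate 8 was highest. The Chil4 call was lost without any 1 of replicates 1, 2, 3, 4, 6 or 7, and reads can be divided between it and its close relative Chil3. In batch 2 Chil4 had a mean of 30400 CPM in BCAM high and 48700 CPM in BCAM low, against 36.0 and 10.4 CPM in batch 1; its change in the differentiated cells was not called different (edgeR interaction adjusted p = 0.767 and 0.359). Clca1 rose less than in either, by a difference of -4.10 and -4.42 on the log2 scale (edgeR interaction adjusted p = 0.0427 and 0.0184).

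Sprr2a2, a small proline-rich protein, was at most 6.03 CPM and then 63.7, 44.3 and 113 CPM (5.71, SE 0.89, edgeR adjusted p = 0.00575). Its mean also rose in BCAM high, from 65.7 to 823 CPM, and in BCAM low, from 46.8 to 919 CPM. Neither difference in change was called (edgeR interaction adjusted p = 0.313 and 0.498). Cd177 rose from 1.36 to 13.5 CPM to 90.8, 51.5 and 87.6 CPM (3.46). Mean Cd177 went from 0.709 to 98.3 CPM in BCAM low and from 0.106 to 0.0994 CPM in BCAM high. Scd1, a fatty acid desaturase, was 6.03 to 8.59 CPM and then 309, 37.8 and 18.6 CPM (4.03), a call lost without any 1 of the 5 batch 1 libraries. Dusp2, a phosphatase of MAP kinases, rose from 1.40 to 5.88 CPM to 47.7, 50.5 and 29.8 CPM (3.39, SE 0.35, edgeR adjusted p = 1.19e-04), and Trim36 from 0.861 to 5.33 CPM to 42.3, 37.8 and 16.0 CPM (3.34). The Dusp2 rise was larger than in BCAM high by 2.37 and than in BCAM low by 3.51 (edgeR interaction adjusted p = 0.0139 and 3.82e-04).

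On the lower side, 4 of the 8 largest were pseudogenes, whose estimated counts depend on how reads were divided among near-identical copies. Rpl9-ps4 had 1341 counts in batch 1 and 0 in batch 2, at least 337-fold lower, and Atp6v0c-ps2 237 and 0, at least 59.6-fold lower, each against 3 counts over the batch; the first call was lost in the fit of all 24 libraries (edgeR adjusted p = 0.0532), and the latter without any 1 of 7 libraries, all but replicate 4. Rps15a-ps7 changed by -4.67 and Rpl19-ps11 by -4.56, the last lost without any 1 of replicates 1, 2, 3, 4, 5 or 7. Cyp4a12b, a fatty acid hydroxylase with a close paralog, was 271 to 364 CPM and then 9.80, 2.05 and 14.4 CPM (-5.10, SE 0.51, edgeR adjusted p = 8.12e-04). Gdpd2, a phosphodiesterase, was 14.9 to 38.7 CPM and then 0.891, 0 and 1.64 CPM (-4.77). Gata3 was 1.33 to 38.1 CPM in batch 1 and at most 1.02 CPM in batch 2 (-4.99), a call lost without any 1 of replicates 1, 4, 6, 7 or 8.

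The batch change of the differentiated cells was next set against that of the BCAM subsets in a fit of all 24 libraries. Of 13770 genes tested, 1056 (7.67%) changed differently from BCAM high, 403 higher (2.93%) and 653 lower (4.74%), and 1382 (10%) changed differently from BCAM low, 567 higher (4.12%) and 815 lower (5.92%). Without replicate 7 these counts were 677 and 812. The batches themselves differed for 6.80% of genes in BCAM high (4.28% higher, 2.53% lower) and 10.5% in BCAM low (6.25% higher, 4.25% lower). The 1963 differentiated-cell calls of the 8-library fit were set against the BCAM calls of the 24-library fit, over genes tested in both. Of the 1963, 315 (16.0%) were also called between the batches of BCAM high (36.0% of the calls there), 252 in the same direction. For BCAM low it was 460 (23.4%, and 35.0% of the calls there), 350 in the same direction. The 24-library fit itself called 2503 genes between the batches of the differentiated cells.

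Secretory genes and xenobiotic enzymes often had a lower batch change in the differentiated cells. Of 30 secretory genes it was lower than in BCAM high for 14 and lower than in BCAM low for 19, and higher for 0. The secretory list itself had a median of 0.52 in BCAM high and 2.34 in BCAM low, against -0.99 in the differentiated cells. For xenobiotic enzymes the change was lower for 16 and 19 of 23, with 2 the other way in each. Scgb1a1 had a fitted change of 0.02 in BCAM high and of 2.80 in BCAM low, so that the difference was -4.09 and -6.87 (edgeR interaction adjusted p = 0.0302 and 9.49e-04). Of 15 thyroid genes the change was higher than in BCAM high for 2 and than in BCAM low for 2. The list had medians of 1.55 in BCAM high and 1.63 in BCAM low, against 2.07 in the differentiated cells in the same fit. Tg rose by 5.51 in BCAM high and 5.57 in BCAM low, from far lower levels. Its difference was not called (-3.36 and -3.42, edgeR interaction adjusted p = 0.145 and 0.141). The rise of Bcam was larger than in BCAM high by 1.5 and than in BCAM low by 1.79 (edgeR interaction adjusted p = 0.0263 and 0.00693). In the ciliary structure list 17 of 29 had a lower change than in BCAM low, where the median was 4.13, and 4 a higher change than in BCAM high, where it was -0.49. Of 13 mitochondrial mRNAs 1 had a lower change than in BCAM high.

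**Figure D4:**
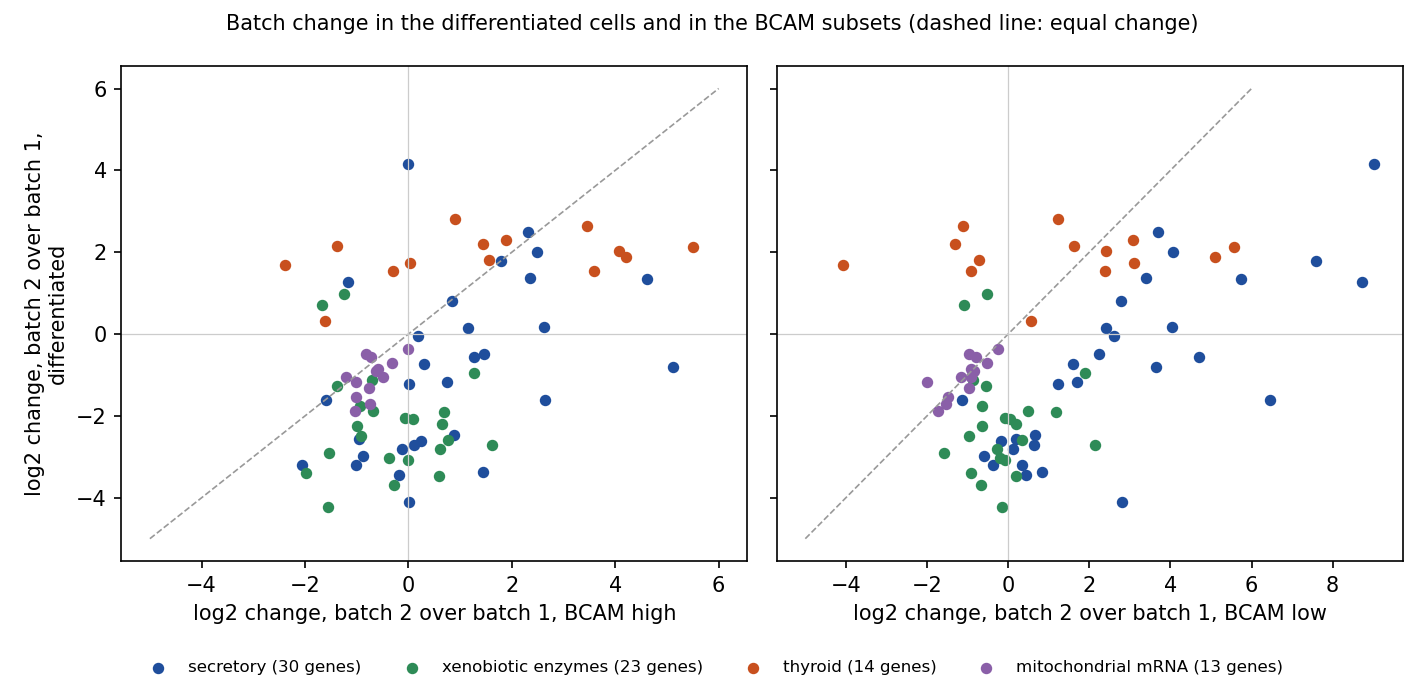
Fitted log2 change between batches in the differentiated cells (vertical axis) against that in BCAM high (left) and BCAM low (right) for the members of 4 lists; points on the dashed line changed equally. Most xenobiotic enzymes lie below the line, with medians of -2.24 against -0.38 and -0.20, and mitochondrial mRNAs lie near it.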

How the data were processed

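RNA from 1000 sorted cells per sample was made into libraries by the SmartSeq2 population protocol and read as 38-base pairs, per the labels' protocols. The authors deposited estimated counts and TPM per transcript for each sample; kallisto, Picard and GRCm39 are named per the submitters' processing notes. The deposited TPM served only for limma on log2(TPM + 0.1) and log2(TPM + 1).

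Of 117497 transcripts, 116428 were matched to GENCODE M21 (GRCm38) by identifier; their estimated counts were summed to 35907 genes and rounded, and the unmatched 1069 held 0.3318% to 0.5752% of counts. Printed gene coordinates are from GRCm38 and promoter windows from RefSeq on GRCm38.p6; neither is the submitters' build. edgeR 4.0.16 (R 4.3.3; TMM, filterByExpr, robust quasi-likelihood fit) was run on the 8 libraries, with Benjamini-Hochberg adjustment over all tested genes at 0.05, and on all 24 for differences between subsets. SE was taken from each log2 change and its F statistic, as its size over the root of F. Alternatives used DESeq2 1.42.0, limma 3.58.1, transcript length offsets, other filters and scalings, and left-out libraries.

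Named genes were the 8 largest called changes in each direction whose mean reached 10 CPM without overlap between batches, up to 3 called members per list with its member of highest mean, and marker and label-check genes; other genes named in the text were added after their values were seen. The members, the 31 lists and the comparison were chosen with earlier results of these data known, and 3 lists were added after values had been seen. Replicate numbers were not used to pair the samples in the main fits. Same-numbered deviations correlated at 0.008 to 0.141 (BCAM high) and 0.016 to 0.153 (BCAM low). Whether same-numbered samples share an animal is not stated. Fold limits and intervals cover counting error only. Some genes that the rule names are not reported here.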

Additional observations from a re-analysis of the deposited data

Results flagged for a closer look

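In 14 named genes, 1 batch 1 library lay far from the other 4, by a gap above Dixon's critical value for 5 samples (0.71). For normally spread values chance does this in about 1 in 20 groups. Named genes with a batch test alone numbered 100, so several such gaps can arise by chance. Eif2s3y, Uty, Sprr2a2 and Sftpc were near the floor in batch 1. Replicate 2 was high for Pth (14300 CPM), Chga (9260 CPM) and Chad (608 CPM). Replicate 5 was high for Sftpc (5.77 CPM), Chil4 (89.2 CPM), Ret (11.5 CPM) and Uty (3.55 CPM). Replicate 3 was high for Sprr2a2 (6.03 CPM), Csf1r (15.5 CPM) and Eif2s3y (0.431 CPM) and low for Ulk4 (16.4 CPM) and Dnah9 (2.58 CPM). Slc5a5 was high in replicate 4 (162 CPM) and Per3 low in replicate 1 (12.6 CPM).

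The log2 batch change in the differentiated cells differed from that of another subset, by edgeR's interaction test, for these genes. Against BCAM high and BCAM low it was lower for Clca1 by -4.10 and -4.42, for Cyp4a12b by -2.88 and -4.40, and for Gata3 by -5.94 and -5.41. It was also lower for Gdpd2 by -4.49 and -4.30, for Rps15a-ps7 by -4.50 and -5.13, for Krt4 by -2.59 and -1.53, and for the secretoglobin Scgb1a1 by -4.09 and -6.87. Dusp2 was higher by 2.37 and 3.51 and Bcam by 1.5 and 1.79. Krt8 differed from BCAM high alone in this test (-0.88), and Cd177 (-3.54) and Foxj1 (-3.48) from BCAM low alone; whether the differences from the 2 subsets themselves differ was not tested.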

How the results depend on the processing

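The count of 1963 genes was 1197 when transcript lengths entered as offsets, 795 and 1011 by limma with TPM + 0.1 and TPM + 1 (log2), 617 without replicates 2 and 6 together (chosen after seeing the data) and 168 when tested against a log2 change of 1. Leaving out 1 library gave 987 (replicate 6) to 2576 (replicate 8); the cause was not tested. The differences from BCAM high and BCAM low gave 677 to 1498 and 812 to 1923, lowest without replicate 7. With a replicate block they gave 1367 and 1788, of which 1017 and 1343 were shared with the 1056 and 1382 without it. Of 8 differentiated libraries, 6 (BCAM high) and 5 (BCAM low) correlated best with the library of their own number. The correlations were low, and these values do not settle whether the numbers pair samples.

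No called gene named by the rule changed sign under any alternative run. Of the 82 called, 41 were not called without replicates 2 and 6, 28 and 24 by limma with TPM + 0.1 and + 1, 28 without replicate 6, 24 without replicate 7, 12 with no filter, 9 with length offsets, 8 with library totals and 7 in the fit of all 24 libraries. Among those not called, Nr1d1 (0.00) was -0.01 with no filter and -0.10 to 0.12 with 1 library left out. Ulk4 was -0.48 with length offsets, -0.52 and -0.48 on TPM and -0.61 to 0.56 with 1 library left out. Hspa8 was 0.16 with library totals, 0.18 on TPM and 0.01 without replicates 2 and 6. Col3a1 was -2.77 and -1.10 on TPM, -9.13 to 1.59 with 1 library left out and -9.47 without replicates 2 and 6. The change of mt-Co1 was 0.07 on TPM, and Kdm5d and Clock ranged from -0.22 to 0.40 and from -0.02 to 0.72 with 1 library left out.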

Other observations

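Of 80 tested ribosomal protein genes, listed after values had been seen, 33 fell and 2 rose, with a median log2 change of -0.41. The summed level was 20700 to 25900 CPM in batch 1 and 17900, 17300 and 17300 CPM in replicates 6, 7 and 8, without overlap. These calls moved with the scaling: with library totals 2 fell and 2 rose, and with limma on log2(TPM + 0.1) 0 fell and 1 rose. They moved with the libraries too: 11 fell without replicate 6, 11 without replicate 7 and 22 to 37 without any other 1 library. The medians in BCAM high and BCAM low were -0.34 and -0.46.

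Cldn18, a claudin of lung and stomach epithelium, had 0 counts in batch 1 and 118 in batch 2, at least 52.2-fold higher against 3 counts over the batch. Postn, a matricellular gene, had 128 counts in batch 1 and 0 in batch 2, at least 32.2-fold lower on the same floor. Cldn18 was not among the genes tested and Postn was not called. These counts are pooled over the libraries of a batch.

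Of 10 tested alveolar type 2 genes, listed after values had been seen, 4 rose (median 1.56); the summed level was 1140 to 1680 CPM in batch 1 and 5860, 875 and 773 CPM in replicates 6, 7 and 8, high in replicate 6 alone. Without replicate 6 the list had 3 higher and 1 lower with a median of 0.34, and without any 1 of the batch 1 libraries it had 2 higher; with limma on log2(TPM + 0.1) and log2(TPM + 1) the median was 0.80 and 0.73. Of 10 tested type 2 response genes, listed in the same way, 4 rose (median 1.52), with sums of 854 to 1070 CPM in batch 1 and 4120, 3390 and 13000 CPM in batch 2. Most of each batch 2 sum was Chil4, at 2200, 2630 and 9520 CPM. Without any 1 of replicates 1, 2, 3, 4 or 6 that list had 2 higher, without replicate 8 it had 5 higher and 2 lower, and in the fit of all 24 libraries 6 rose and 1 fell with a median of 3.52. The medians of the latter list in BCAM high and BCAM low were 5.47 and 4.14, and 3 and 6 of 13 genes had a lower batch change in the differentiated cells.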
